A study of Mus musculus with 12 samples.

Results

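Sprouty and SPRED proteins are the feedback inhibitors of the RAS and ERK pathway, and their mRNA was followed here in pre-B cell lines with and without BCR-ABL1, the fusion kinase of Philadelphia chromosome-positive acute lymphoblastic leukemia. The genes were taken as the rows of the count table whose Ensembl identifier carries the symbol of 1 of the 7 mouse genes Spry1 to Spry4 and Spred1 to Spred3. Of these, 6 were found among the 51826 genes of the table, and Spry3 is not analysed here. All 12 lines were used, 6 with an empty vector (EV) and 6 with BCR-ABL1. Bone marrow of 2 C57BL/6 mice, cultured with interleukin 7 (IL7) for 7 days, was the source of every line, and each mouse gave 3 EV and 3 BCR-ABL1 lines by retroviral transduction. After 48 h in IL7, the BCR-ABL1 lines were deprived of IL7 for 1 week and were then transformed, whereas the EV lines stayed in IL7 for a similar time and were sorted for GFP, the vector's marker. BCR-ABL1, IL7 withdrawal and the absence of that sort therefore cannot be told apart, and lines of a mouse share an animal. Lines are named by a number, read here as the mouse, and a letter, so that EV 2C is an EV line of mouse 2.

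When a receptor or an oncogenic kinase activates RAS, the kinases RAF, MEK and ERK are activated in turn, and ERK induces genes whose products shut the pathway down again. Sprouty proteins act at the level of receptor adaptors and RAF, and SPRED proteins bring neurofibromin, an inactivator of RAS, to the plasma membrane. In pre-B cells the pathway is known to lie downstream of the pre-B cell receptor, cytokine receptors and BCR-ABL1. Because Sprouty and SPRED genes belong to the ERK response themselves, their mRNA is commonly read alongside ERK output genes such as Etv5 and Dusp6.

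RNA was measured by sequencing of strand-specific total RNA libraries, and the total count was 34791011 to 64547911 in EV lines and 45230023 to 66011225 in BCR-ABL1 lines. EV lines of mouse 2 spread more than the others, with a biological coefficient of variation of 0.386 over all genes, against 0.0951 for EV lines of mouse 1 and 0.0843 and 0.103 for the BCR-ABL1 lines of mouse 1 and mouse 2. All 10 B lineage marker genes examined were detected, and their summed level in the lines was 2529 to 4640 CPM, the count of a gene scaled to a common library size. Markers of T and NK cells summed to no more than 0.797 CPM and those of stromal cells to no more than 1.47 CPM, with both highest in EV 2A. Markers of mast cells and basophils summed to at most 0.245 CPM and those of erythroid cells and megakaryocytes to at most 3.07 CPM. Markers of myeloid cells reached 4.20 to 7.54 CPM, mostly from Cd68, with 6.74 CPM in EV 2C, the highest EV line, and endothelial markers 32.7 to 172 CPM, nearly all from Pecam1, which B cell precursors also express. The part of these traces in the results was not tested. In such bulk RNA, fewer cells that express a gene and less RNA per cell cannot be told apart. The transduced BCR-ABL1 transcript itself is not analysed here, so the labels were not checked with it.

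All 6 genes passed the filter on low counts and were among the 15038 genes tested. Those called within the lines of mouse 1 were Spred1 and Spry1. Spred1 is the SPRED member whose human counterpart is mutated in Legius syndrome (Ensembl ENSMUSG00000027351, GRCm38 chromosome 2, 117121374 to 117182279, plus strand). Spry1 is a Sprouty gene studied mostly as a brake on growth factor signals (ENSMUSG00000037211, chromosome 3, 37639947 to 37644598, plus strand). The 250 bases upstream of the RefSeq start of each (GRCm38.p6, chr2:117120821-117121070 and chr3:37639697-37639946, both plus strand) are printed because these 2 genes carry the differences described next. Capitals mark CpG dinucleotides.
Spred1: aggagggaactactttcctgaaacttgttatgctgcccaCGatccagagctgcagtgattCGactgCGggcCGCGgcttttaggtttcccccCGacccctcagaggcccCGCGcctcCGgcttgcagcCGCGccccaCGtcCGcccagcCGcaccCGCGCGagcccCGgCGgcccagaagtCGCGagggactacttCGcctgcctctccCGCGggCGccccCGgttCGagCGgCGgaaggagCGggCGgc
Spry1: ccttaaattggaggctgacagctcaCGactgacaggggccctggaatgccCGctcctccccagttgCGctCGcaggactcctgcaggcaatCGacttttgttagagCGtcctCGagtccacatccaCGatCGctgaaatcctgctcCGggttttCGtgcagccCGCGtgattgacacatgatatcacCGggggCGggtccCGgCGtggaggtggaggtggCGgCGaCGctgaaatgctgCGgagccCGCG
Both stretches are rich in CpG. The Spred1 stretch holds 31 CpG and 70.8% G and C, and 5.19% of 32851 mouse promoters of this length hold as many CpG. The Spry1 stretch holds 23 CpG and 62.4% G and C, with 13.3% of promoters holding as many, whereas the median promoter holds 6 CpG and 52.4% G and C. Spry2, whose level varied little, also has 23 CpG there, so this feature is not shared by the variable genes alone. Spred2 has 12 and Spred3 has 6. A GC box (GGGCGG, either strand) occurs in 2 places in the Spred1 stretch and in 1 in that of Spry1, and 32.7% of all promoters hold such a box. The AP-1 site TGANTCA, the STAT site TTCNNNGAA and the ETS core CCGGAA were searched on both strands and were in none of the 5 stretches examined. Over all promoters, 6.75%, 7.02% and 12% hold these letters.

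Spred1 was close to silent in the EV lines of mouse 1, intermediate in those of mouse 2 and high in every BCR-ABL1 line. In EV lines 1A, 1B and 1C its level was 0.282, 0.245 and 0.184 CPM, which corresponds to 15, 17 and 12 counts. In EV lines 2A, 2B and 2C it was 56.3, 47.5 and 117 CPM. The BCR-ABL1 lines of mouse 1 had 143, 144 and 144 CPM and those of mouse 2 had 182, 179 and 178 CPM. All 6 BCR-ABL1 lines therefore lay above all 6 EV lines, and the EV lines fell into separate ranges by mouse.

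**Figure D1:**
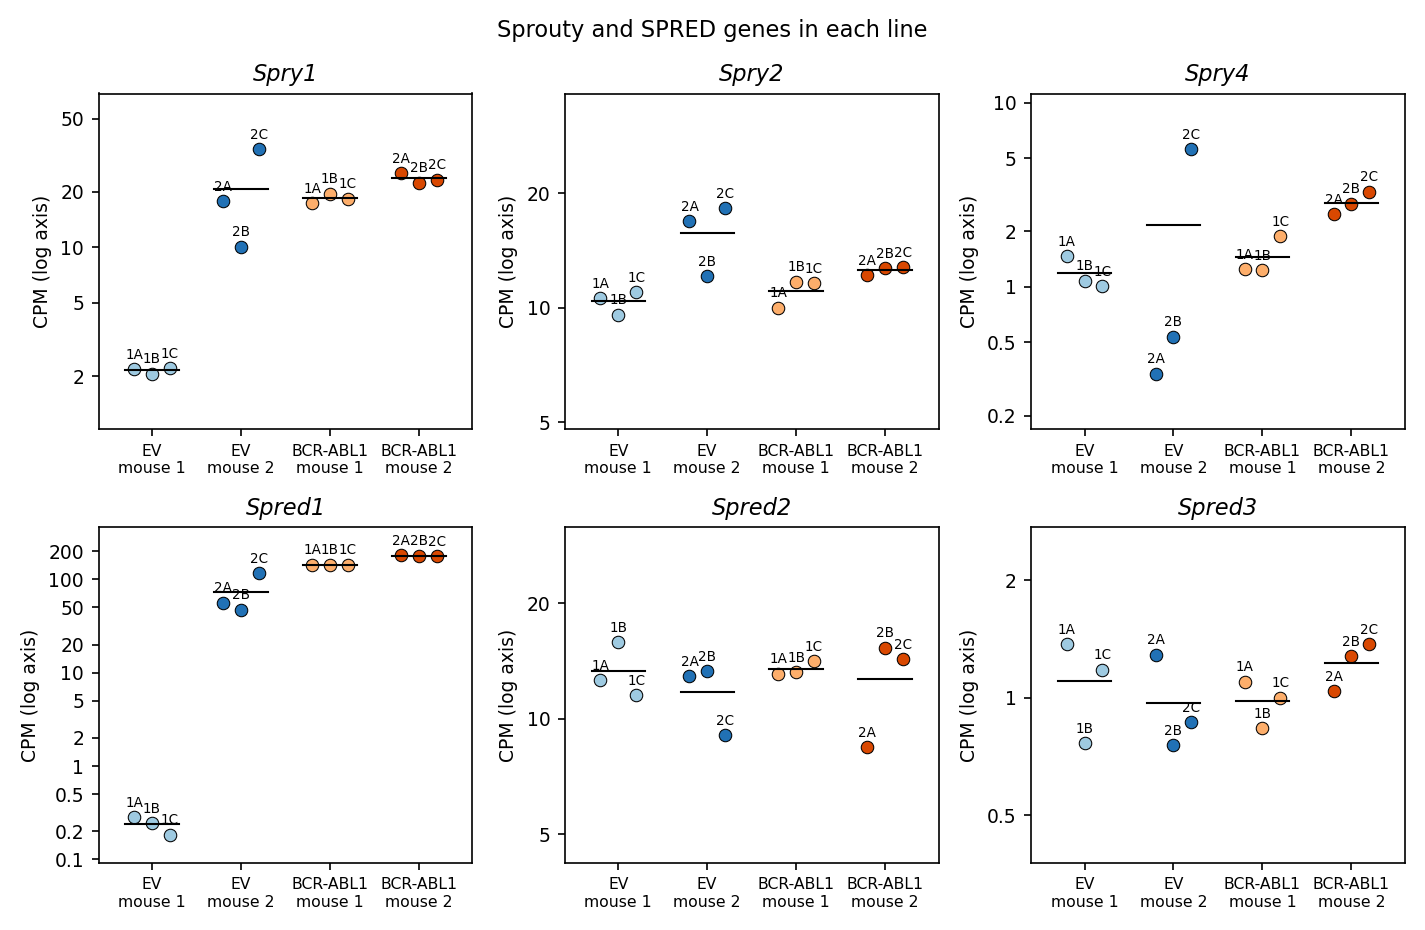
Level of the 6 genes in CPM on a log axis, with 1 point per line, labelled by mouse and letter, and a bar at the mean of the 3 lines of each mouse and condition. Spred1 and Spry1 were lowest in the 3 EV lines of mouse 1, whereas Spry2, Spred2 and Spred3 stayed within narrow ranges and Spry4 was highest in EV 2C.

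The mean level of Spred1 was 162 ± 19.9 CPM in BCR-ABL1 lines and 37.0 ± 46.9 CPM in EV lines (SD, n = 6 each), a fitted log2 fold change of 2.13 or 4.38-fold. The comparison used glmTreat on the quasi-likelihood fit of edgeR, a test of whether a change exceeds 1.5-fold, and a gene was called where its p, adjusted over all genes tested by the Benjamini-Hochberg method (FDR), was under 0.05. Spred1 was not called over the 12 lines (edgeR glmTreat, FDR = 0.442). The fitted fold compares group means. The difference of the mean log2 CPM, on which the EV lines of mouse 1 weigh more, was 5.22 with a standard error of 1.79, and it gave p = 0.00216 in the two-sided exact permutation test over the 924 labelings, the smallest p that 6 against 6 lines can give. Exchanging lines only within a mouse gave p = 0.00500, again the smallest possible in this exact permutation test. Of all tested genes, 25.6% also had all BCR-ABL1 lines above or all below the EV lines. The replicate block by mouse raised the log2 fold change of Spred1 to 4.58, which again was not called (edgeR glmTreat, FDR = 0.0752). EV 2C had the highest Spred1 level of the EV lines, and without it the log2 fold change was 2.97 (edgeR glmTreat, FDR = 0.182).

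Within mouse 1 the change in Spred1 was among the largest of all genes. Its mean rose from 0.237 ± 0.0495 CPM in EV lines, which rests on 12 to 17 counts per line, to 144 ± 0.512 CPM in BCR-ABL1 lines (SD, n = 3 each), a log2 fold change of 9.25 with a standard error of 0.16 (edgeR glmTreat on the lines of mouse 1, FDR = 3.55e-12), the 92nd largest positive value among 15395 genes. Within mouse 2 it was 73.7 ± 38.1 CPM in EV lines and 180 ± 2.18 CPM in BCR-ABL1 lines, a log2 fold change of 1.29 with a standard error of 0.40, which was not called (edgeR glmTreat on the lines of mouse 2, FDR = 0.164). The change differed between the mice by -7.95 on the log2 scale (mouse 2 minus mouse 1, edgeR quasi-likelihood test of the interaction, FDR = 1.26e-06). Most of that difference lay in the EV lines, where mouse 2 exceeded mouse 1 by 8.28 with a standard error of 0.43 (edgeR quasi-likelihood test, FDR = 1.32e-07), the 66th largest of 15038 genes. In BCR-ABL1 lines mouse 2 exceeded mouse 1 by 0.32 with a standard error of 0.01, which was not called in the fit of all 12 lines (edgeR quasi-likelihood test, FDR = 0.651) but was called when EV 2C was left out (FDR = 0.00763). The mouse, its marrow culture and any step done separately for the mice cannot be told apart in the EV lines. Some B lineage markers moved with Spred1 and Spry1. Vpreb1 and Igll1, which encode the surrogate light chain of the pre-B cell receptor, had 186 to 230 and 181 to 219 CPM in EV lines of mouse 1, 451 to 790 and 362 to 813 CPM in those of mouse 2, and 398 to 649 and 349 to 482 CPM with BCR-ABL1. EV 2C had the lowest Rag1 and Blnk of all lines, at 14.5 and 73.0 CPM. The part of these markers in the result was not tested.

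Spry1 was also lowest in the EV lines of mouse 1, but its levels in EV lines of mouse 2 overlapped those of the BCR-ABL1 lines. The EV lines 1A, 1B and 1C had 2.18, 2.06 and 2.21 CPM, and the EV lines 2A, 2B and 2C had 17.8, 10.1 and 34.2 CPM. The BCR-ABL1 lines had 17.4, 19.6 and 18.4 CPM in mouse 1 and 25.3, 22.4 and 23.3 CPM in mouse 2. The groups overlapped, since EV 2C had the highest level of all 12 lines and EV 2A lay among the BCR-ABL1 lines of mouse 1.

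The mean of Spry1 was 21.1 ± 3.08 CPM in BCR-ABL1 lines and 11.4 ± 12.8 CPM in EV lines (SD, n = 6 each), a fitted log2 fold change of 0.89 that was not called (edgeR glmTreat, FDR = 0.758). With mouse as replicate block it was 1.62 (edgeR glmTreat, FDR = 0.119), and without EV 2C it was 1.63 (edgeR glmTreat, FDR = 0.120). On mean log2 CPM the difference was 1.72 with a standard error of 0.73, with p = 0.0541 in the two-sided exact permutation test over all labelings and p = 0.0350 when lines were exchanged only within a mouse. In the lines of mouse 1 Spry1 rose 8.63-fold, a log2 fold change of 3.11 with a standard error of 0.06 (edgeR glmTreat, FDR = 3.13e-09). In the lines of mouse 2 it was 0.20 with a standard error of 0.51 and was not called (edgeR glmTreat, FDR = 1.00). The change differed between the mice by -2.91 (edgeR interaction, FDR = 0.00149), and in EV lines Spry1 was 9.62-fold higher in mouse 2 than in mouse 1 (log2 difference 3.27, standard error 0.51, edgeR FDR = 5.72e-05).

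Reads near Spry1 moved with it. Gm42922, a predicted transcript on the opposite strand that overlaps Spry1 by 710 bases, had 7 to 12 counts in the EV lines of mouse 1, 24 to 64 in those of mouse 2 and 36 to 48 in the BCR-ABL1 lines. Gm43820, which lies on the strand of Spry1 without overlap, had 9 to 21, 58 to 214 and 52 to 133 counts in the same groups. Both were highest in EV 2C, like Spry1 itself with 1896 counts there. The strand setting of the counting is not given in the sources used here, so that reads of Spry1 and Gm42922 may not be separable, but the latter's counts were small beside those of Spry1 in every line.

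Spry2, the Sprouty gene most often studied as an inhibitor of receptor tyrosine kinase signals (ENSMUSG00000022114, chromosome 14, 105891947 to 105896819, minus strand), was well expressed in all lines and varied little. The EV lines had 10.6, 9.59 and 11.0 CPM in mouse 1 and 16.9, 12.1 and 18.3 CPM in mouse 2. The BCR-ABL1 lines had 10.0, 11.7 and 11.6 CPM in mouse 1 and 12.2, 12.7 and 12.8 CPM in mouse 2. All lines but EV 2A and EV 2C lay between 9.59 and 12.8 CPM, and those 2 were the highest. Means were 11.8 ± 1.01 CPM with BCR-ABL1 and 13.1 ± 3.61 CPM with EV (SD, n = 6 each), and the log2 fold change of -0.14 was not called (edgeR glmTreat, FDR = 1.00, exact permutation p = 0.522). In EV lines Spry2 was 1.51-fold higher in mouse 2 (log2 difference 0.60, standard error 0.19, edgeR quasi-likelihood test, FDR = 0.0129). This call was lost without EV 1A (FDR = 0.0533), without EV 1B (FDR = 0.0570) and with no filter on low counts (edgeR, FDR = 0.0575). The change with BCR-ABL1 was 0.10 in mouse 1 and -0.31 in mouse 2, and the difference of -0.42 was not called (edgeR interaction, FDR = 0.213), except when EV 2B was left out (-0.58, FDR = 0.0234).

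Spry4, a Sprouty gene commonly induced by ERK activity (ENSMUSG00000024427, chromosome 18, 38586247 to 38601415, minus strand), was low, and 1 line decided its EV values. The EV lines had 1.47, 1.08 and 1.01 CPM in mouse 1 and 0.337, 0.536 and 5.61 CPM in mouse 2, with 11 counts in EV 2A and 311 in EV 2C. The BCR-ABL1 lines had 1.25, 1.23 and 1.89 CPM in mouse 1 and 2.48, 2.83 and 3.28 CPM in mouse 2. EV 2C was thus the highest of all 12 lines, and the other EV lines of mouse 2 were the lowest. Means were 2.16 ± 0.843 CPM with BCR-ABL1 and 1.67 ± 1.97 CPM with EV (SD, n = 6 each), and the log2 fold change of 0.36 was not called (edgeR glmTreat, FDR = 1.00, exact permutation p = 0.188). Without EV 2C it was 1.27 (edgeR glmTreat, FDR = 0.0993). In EV lines mouse 2 differed from mouse 1 by a fitted 0.89 (edgeR, FDR = 0.450), and without EV 2C by -1.39 (edgeR, FDR = 0.00326). The sign of the fitted difference thus rested on that line. On log2 CPM, where the difference had a standard error of 1.23, these lines stood at -1.42, -0.80 and 2.50 in mouse 2. Those of mouse 1 stood at 0.59, 0.16 and 0.07. With EV 2C kept and no filter on low counts the fitted difference was 0.88 and was called (edgeR, FDR = 0.0284). The interaction was 0.08 (edgeR, FDR = 0.976) and without EV 2C 2.37 (FDR = 0.000478). Among BCR-ABL1 lines mouse 2 was higher by 0.98 with a standard error of 0.23, every line of mouse 2 being above every line of mouse 1, which was not called in the fit of all lines (edgeR, FDR = 0.641) but was without EV 2C (FDR = 0.0109) and with no filter on low counts (FDR = 0.0254).

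Spred2 and Spred3 had differences between the conditions that were smaller than the spread of the lines. Spred2, the broadly expressed relative of Spred1 (ENSMUSG00000045671, chromosome 11, 19924375 to 20024026, plus strand), had 12.6, 15.8 and 11.5 CPM in the EV lines of mouse 1 and 12.9, 13.3 and 9.05 CPM in those of mouse 2. Its levels with BCR-ABL1 were 13.1, 13.2 and 14.1 CPM in mouse 1 and 8.42, 15.3 and 14.3 CPM in mouse 2. The ranges of the conditions overlapped nearly in full, with the lowest values in BCR-ABL1 2A and EV 2C. Its log2 fold change was 0.06 with a standard error of 0.17 (edgeR glmTreat, FDR = 1.00, exact permutation p = 0.712). Spred3 (ENSMUSG00000037239, chromosome 7, 29158829 to 29170411, minus strand) ranged from 0.755 to 1.37 CPM with EV and from 0.836 to 1.37 CPM with BCR-ABL1, or 38 to 84 counts per line. Its log2 fold change was 0.09 with a standard error of 0.18 (edgeR glmTreat, FDR = 1.00, exact permutation p = 0.554). Neither gene was called between the mice in EV lines, with log2 differences of -0.18 for Spred2 (standard error 0.22, edgeR FDR = 0.626) and -0.20 for Spred3 (standard error 0.33, edgeR FDR = 0.643). The Ggn gene overlaps Spred3 by 202 bases on the other strand and had 1 to 13 counts per line.

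Counted over the family, 0 of 6 genes were called higher and 0 lower in BCR-ABL1 lines by edgeR glmTreat over the 12 lines, where 5.99% of all tested genes were called higher and 6.49% lower. At an unadjusted p under 0.05 the count was 0 with edgeR glmTreat, with its likelihood ratio fit, with DESeq2 and with a test against no change, and it was 2, Spred1 and Spry1, with mouse as replicate block, where 22.7% of all genes had such a p. After adjustment the block called 7.49% of all genes higher and 7.18% lower. The log2 fold change was positive for 5 of 6 genes, with a median of 0.23 against -0.02 for all genes.

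Split by mouse, the counts differed. In mouse 1, 2 of 6 genes were called higher, Spred1 and Spry1, where 16.3% of all genes were. In mouse 2, 0 of 6 were called higher, against 3.99% of all genes. The same 2 genes were the ones whose change differed between the mice, against 16.9% of all genes. Between EV lines, 3 of 6 were higher in mouse 2 (Spred1, Spry1 and Spry2) and 0 lower, against 15.2% and 9.56% of all genes, and between BCR-ABL1 lines 0 were higher and 0 lower, against 3.15% and 2.83%. Without EV 2C the last count became 2, Spred1 and Spry4, but the share of all genes in that setting is not given here. Between the conditions, the genes called higher in all rose from 901 to 1353 without that line. With 6 genes, a share moves by a large step with each gene.

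**Figure D2:**
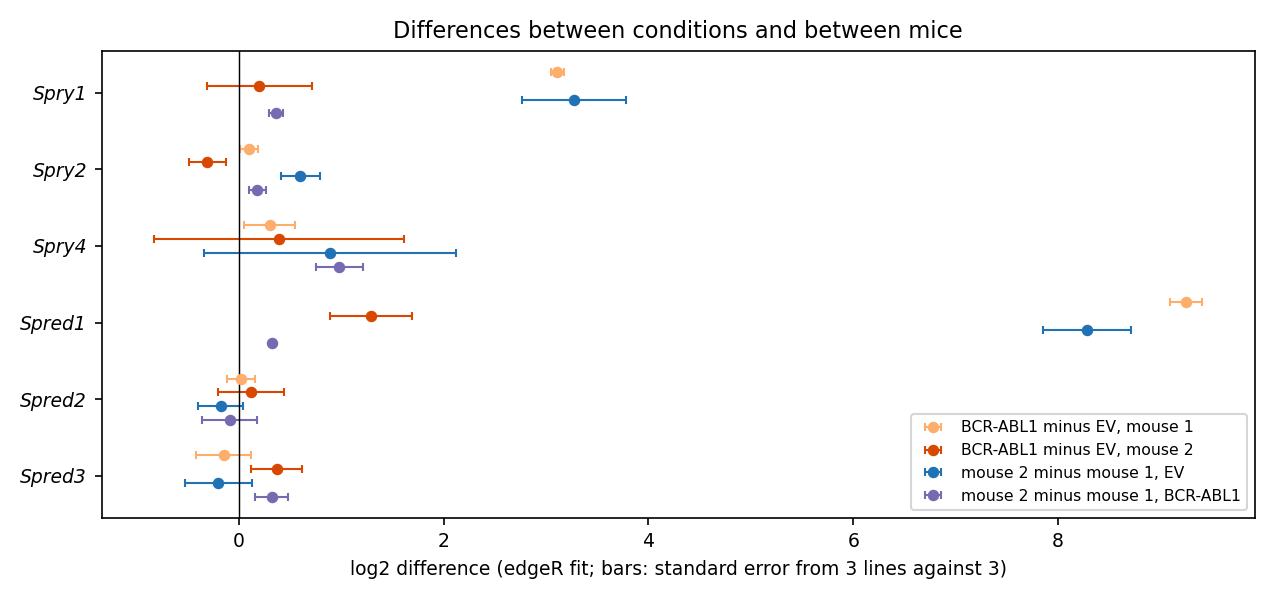
Log2 differences of the 6 genes from the edgeR fits, with bars for the standard error computed on log2 CPM of 3 lines against 3. The bars belong to the difference of mean log2 CPM, not to the fitted difference at which they are drawn. For Spred1 and Spry1 the difference of BCR-ABL1 from EV in mouse 1 (9.25 and 3.11) and that of mouse 2 from mouse 1 in EV lines (8.28 and 3.27) were the largest, and the widest bars were those of Spry4.

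Levels of different genes were compared per length, as read density over the exons at equal library size (RPKM). In EV lines of mouse 1 the order was Spry2, Spred2, Spry1, Spry4, Spred3 and Spred1, with Spred1 at 0.0272 to 0.0416 RPKM. Spry4 and Spred3 are neighbours there that overlap, at 0.213 to 0.309 and 0.123 to 0.221 RPKM, and they changed places when the longest transcript was taken as length. In both mice the BCR-ABL1 lines had the order Spred1, Spry1, Spry2, Spred2, Spry4 and Spred3, in which Spred1 stood at 21.1 to 26.9 RPKM and Spry1 at 6.00 to 8.71 RPKM. In EV lines of mouse 2 Spred1 also came first, at 7.00 to 17.3 RPKM, but its range overlapped those of Spry2, at 5.79 to 8.75 RPKM, and Spry1, at 3.48 to 11.8 RPKM.

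The 6 genes together stood at 8.95 to 9.12 RPKM in EV lines of mouse 1, of which Spred1 made up 0.303 to 0.456%. In EV lines of mouse 2 the sum was 19.4 to 41.1 RPKM, with 32.4 to 42.1% from Spred1. It was 35.1 to 36.8 RPKM in BCR-ABL1 lines of mouse 1 and 43.9 to 44.4 RPKM in those of mouse 2, with 57.6 to 60.0% and 59.1 to 61.2% from Spred1. Spry2 led the family in the EV lines of mouse 1 and Spred1 led it in all other lines, those with EV in mouse 2 included. The sum in EV 2C, 41.1 RPKM, lay within the range of the BCR-ABL1 lines.

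**Figure D3:**
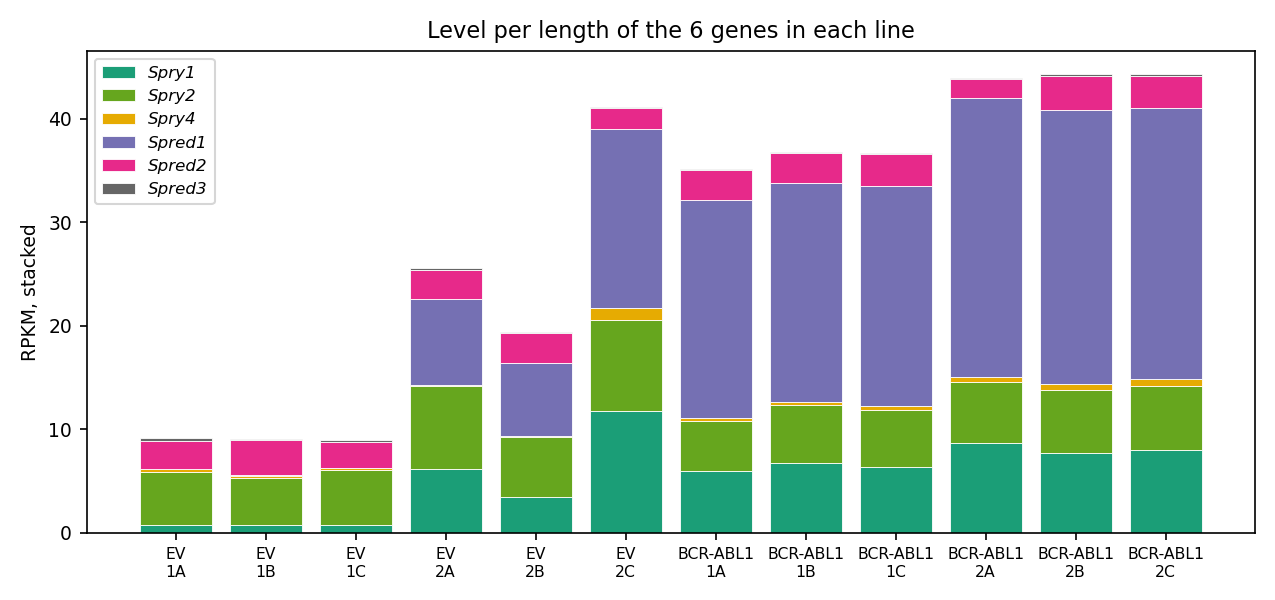
Stacked levels of the 6 genes per length (RPKM) in each of the 12 lines. The summed level was near 9 RPKM in the EV lines of mouse 1, where Spred1 is hardly visible, and Spred1 formed the tallest segment in every BCR-ABL1 line.

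Patterns over the 12 lines were compared with those of 9804 other genes whose average log2 CPM was 1 or more, by Pearson correlation of log2 CPM. Predicted and mitochondrial genes and others with provisional symbols were left out, so genes among those may lie closer. The closest to Spred1 were Slc35g1 (r = 0.999), Zfp709 (r = 0.997) and Smco4 (r = 0.997). Like Spred1, these 3 were at or near 0 in EV lines of mouse 1, where Slc35g1 had 0.0376 to 0.0461 CPM and Smco4 was at 0 counts in all 3 lines. Slc35g1 reached 6.12 to 11.1 CPM in EV lines of mouse 2 and 13.9 to 19.2 CPM in BCR-ABL1 lines. The genes closest to Spry1 were Plekha1 (r = 0.988), Ier2 (r = 0.987), an immediate early gene, and Sil1 (r = 0.987). Spry1 and Spred1 correlated with each other with r = 0.977. These values are descriptions, and the points share the split of the EV lines by mouse. The closest genes to the others had lower values, from r = 0.931 for Galnt14 with Spry2 and for Eml4 with Spry4 through r = 0.898 for Rfx7 with Spred2 to r = 0.770 for Mad1l1 with Spred3.

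The rest of the pathway was read from 88 genes in 8 lists, of which 69 were tested. In BCR-ABL1 lines 13 (18.8%) were called higher and 5 (7.25%) lower by edgeR glmTreat, against 5.99% and 6.49% of all genes, with a median log2 fold change of 0.22 against -0.02. The share of lower calls was thus near that of all genes. With mouse as replicate block the counts were 15 and 7, against 7.49% and 7.18% of all genes.

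The genes that ERK activates held 5 of the 13 calls, with 5 of 9 tested higher and 0 lower, against 5.99% and 6.49% of all genes. With mouse as replicate block Egr1, an immediate early transcription factor, was also called lower (edgeR FDR = 0.0372, against 0.0511 without the block), at 2.96 to 10.6 CPM with EV and 2.64 to 3.59 CPM with BCR-ABL1. Etv5, an ETS factor that serves as a readout of ERK, rose from 34.3 to 49.3 CPM in EV lines to 82.7 to 106 CPM in BCR-ABL1 lines, a log2 fold change of 1.21 (standard error 0.09, edgeR FDR = 0.000123), with no overlap between the conditions. Epha2, an ephrin receptor, rose from 0.0154 to 0.596 CPM to 28.5 to 52.9 CPM (edgeR FDR = 1.79e-05). Etv1 rose from 0.0144 to 0.491 CPM to 1.61 to 3.97 CPM (edgeR FDR = 0.000858) and Ccnd1, which encodes cyclin D1, from 0.0289 to 0.460 CPM to 0.848 to 3.72 CPM (edgeR FDR = 0.000560). Fos was higher too (edgeR FDR = 0.000632). Between the EV lines, 4 of the 9 were higher in mouse 2 and 0 lower, where 15.2% and 9.56% of all genes were. Epha2 differed by 2.86 on the log2 scale (edgeR FDR = 0.0211) and Etv1 by 3.16 (FDR = 0.00792), at no more than 0.596 and 0.491 CPM in EV lines. Fos differed by 1.00 (FDR = 0.00682) and Phlda1 by 1.49 (FDR = 0.000129). Etv5 had a log2 difference of -0.24, mouse 2 minus mouse 1, which was not called (edgeR FDR = 0.143).

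Of the phosphatases that act on ERK, Dusp5, which inactivates nuclear ERK, rose from 4.68 to 38.2 CPM to 48.8 to 67.5 CPM (edgeR FDR = 0.0119). Dusp7 rose by 0.95 on the log2 scale (standard error 0.10, edgeR FDR = 0.00618). Dusp6, the cytoplasmic ERK phosphatase, stood at 80.6 to 125 CPM with EV and at 162 to 230 CPM with BCR-ABL1 without being called against 1.5-fold (log2 fold change 0.82, edgeR FDR = 0.0719). Dusp5 shared the direction of Spred1 between the mice, being higher in the EV lines of mouse 2 by 1.95 (edgeR FDR = 0.00558). In the lines of mouse 1 alone, 3 of the 4 phosphatases were called higher, Dusp4, Dusp5 and Dusp7, where 16.3% of all genes were. In those of mouse 2 alone 0 were, against 3.99% of all genes. The median log2 fold change of the 4 was 1.29 in mouse 1 and 0.91 in mouse 2.

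Upstream of RAS, 7 of the 15 listed receptors passed the filter on low counts. Of these, 4 were higher and 1 lower, where 5.99% and 6.49% of all genes were. Csf2rb, the common beta chain of the IL3, IL5 and GM-CSF receptors, rose from 4.71 to 13.6 CPM to 145 to 174 CPM (log2 fold change 4.45, edgeR FDR = 5.18e-07). Flt3 (edgeR FDR = 2.86e-05), Igf1r (FDR = 0.0198) and Il3ra (FDR = 0.000194) were also higher, and Il7r, the IL7 receptor alpha chain, fell by 1.06 (edgeR FDR = 0.00328). Igf1r also differed between the mice in EV lines (edgeR FDR = 0.000216). It had 0.0154 to 0.0578 CPM in those of mouse 1, 0.318 to 0.828 CPM in those of mouse 2 and 1.02 to 7.32 CPM with BCR-ABL1. In the fits of single mice Il7r was called for mouse 1 but not for mouse 2, whereas Csf2rb, Flt3, Igf1r and Il3ra were called for both. Of the 9 adaptors such as Grb2 and Sos1, 0 were called in either direction.

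Of 14 tested genes of the RAS, RAF, MEK and ERK core, 1 was called, the scaffold Ksr1, with a log2 fold change of 1.47 (edgeR FDR = 0.0174). Ksr1 was not called in the lines of either mouse taken alone. With mouse as replicate block Rras2 was also called higher (edgeR FDR = 0.0203) and Rras lower (edgeR FDR = 0.0191). Among 4 tested exchange factors that load RAS with GTP, Rasgrp1 was higher and Rasgrp3 lower. The fitted log2 difference of Rasgrp1 was 3.82 (standard error on log2 CPM 1.28, edgeR FDR = 0.0268). That of Rasgrp3 was -2.94 (standard error on log2 CPM 0.44, edgeR FDR = 0.00129). Of 11 other inhibitors, the RAS GTPase activators Rasal1 and Rasa2 fell, with log2 differences of -2.04 (edgeR FDR = 0.000143) and -0.98 (edgeR FDR = 0.00439), and 0 were higher, though Rasa3 was called higher with the block (edgeR FDR = 0.0432). Nf1, which encodes neurofibromin, the partner of SPRED proteins, was not called (log2 difference 0.02, standard error 0.48, edgeR FDR = 1.00), at 31.3 to 39.2 CPM in the EV lines of mouse 1, 4.47 to 25.5 CPM in those of mouse 2 and 21.8 to 33.4 CPM with BCR-ABL1. Of 11 partners and turnover factors, Tesk1, a kinase that binds Sprouty and SPRED proteins, was the only call and fell (edgeR FDR = 2.27e-06), from 46.0 to 57.8 CPM to 14.8 to 18.4 CPM.

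Between the EV lines, 18 of the 69 (26.1%) were higher in mouse 2 and 3 (4.35%) lower, against 15.2% and 9.56% of all genes, with a median log2 difference of 0.14 against 0.02. All 4 tested exchange factors were among them. Rasgrp1 had 0.0461 to 0.303 CPM in mouse 1 and 7.45 to 9.05 CPM in mouse 2 (edgeR FDR = 1.31e-06), against 38.6 to 89.1 CPM in BCR-ABL1 lines, and so was lowest in the same lines as Spred1. The adaptor Gab1, with 0.00 to 0.0376 CPM in mouse 1 and 3.55 to 10.7 CPM in mouse 2, and the insulin receptor gene Insr, with 0.00 to 0.0753 and 6.22 to 15.6 CPM, were further genes near 0 in EV lines of mouse 1 only (edgeR FDR = 6.91e-06 and 1.18e-06).

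**Figure D4:**
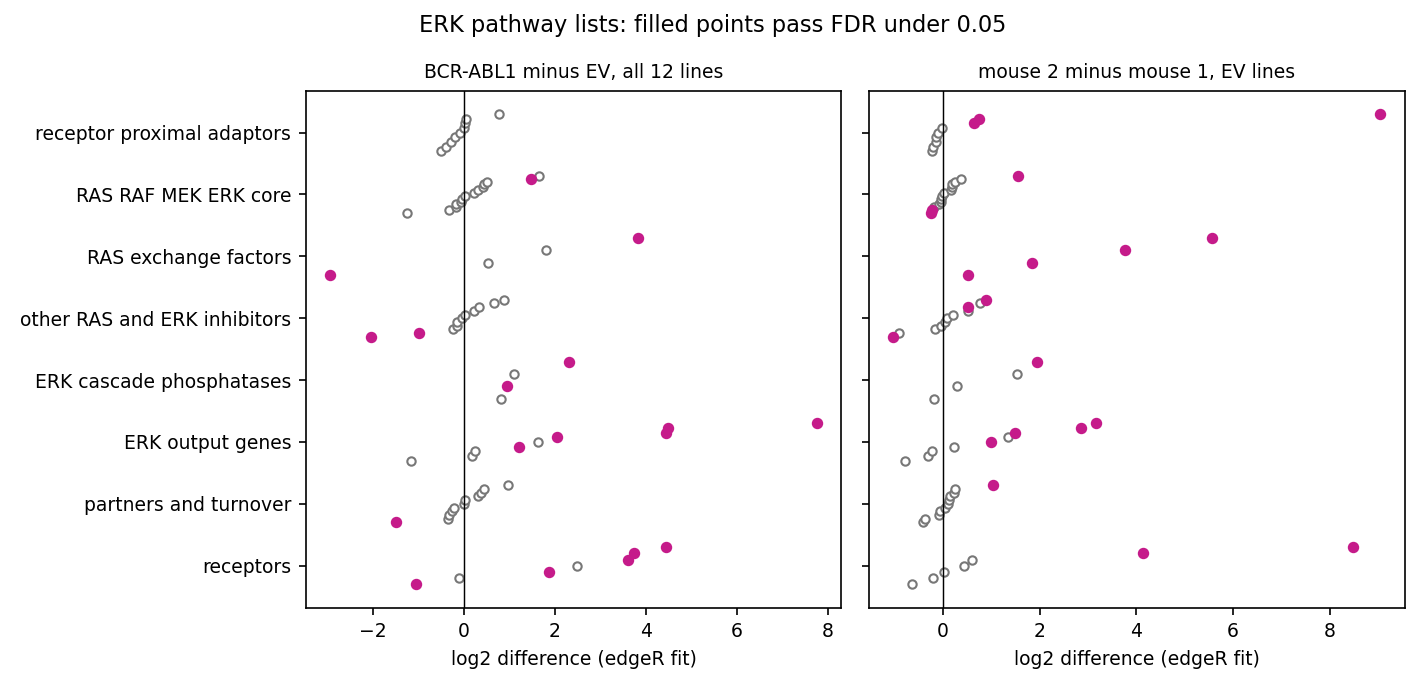
Log2 differences of the 69 tested genes of the 8 ERK pathway lists, for BCR-ABL1 minus EV over all 12 lines (left) and for mouse 2 minus mouse 1 in EV lines (right), with 1 point per gene and filled points for FDR under 0.05. ERK output genes and receptors held more filled points than any other list on the left, and the 4 exchange factors were all filled on the right.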

How the data were processed

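RNA of the 12 lines was sequenced, and the authors deposited whole-number counts per gene, without normalization and without pooling. The submitters' processing notes name GRCm38, FastQC 0.11.5, Trimmomatic 0.36, TopHat2 2.1.1, Bowtie2 2.3.2, featureCounts 1.5.3, R 3.6.1 and edgeR 3.18.1. The annotation and strand setting of the counting are not given in the sources used here. From the counts, CPM on TMM library sizes, RPKM on the union of annotated exons and log2 CPM with a prior count of 2 were computed in R 4.3.3 with edgeR 4.0.16. Symbols and positions came from the GENCODE M21 annotation (GRCm38), in which 51633 identifiers were found, and promoter sequences from RefSeq (GRCm38.p6). Promoters of 5 family genes were examined, and Spry4, on chromosome 18, was left out of that step.

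Genes were filtered with filterByExpr. glmTreat against 1.5-fold was fitted on condition over all lines. The interaction and the differences between mice came from glmQLFTest on the 4 groups of mouse and condition, which share an estimate of the spread. FDR is the Benjamini-Hochberg adjusted p over all tested genes, with a threshold of 0.05. Standard errors were computed on log2 CPM of the lines and belong to the difference of mean log2 CPM. The fitted log2 differences compare group means. Where lines spread widely, as for Spry4 and Rasgrp1, the standard error therefore does not measure the error of the fitted value. Total counts were 34791011 to 66011225 per line, and the floor was set at 3 counts, which covers counting error only. Lines were taken as separate transductions of 2 mice, so p-values measure the spread between lines, not between animals.

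Deviations from the condition means correlated by 0.0853 to 0.240 between the conditions within a mouse, by -0.203 to -0.0636 for different mice, and by -0.109 to 0.0856 for the same mouse and letter after removal of mouse means. The number in the label, read here as the mouse, therefore pairs the lines and the letter does not. Replicate lines differed by a chi-square of 9.36 to 434 per gene, and none was treated as the same library. Alternatives were DESeq2's size factors (RLE), other filters, the likelihood ratio fit, DESeq2 1.42.0, a test against no change, replicate blocks, each mouse alone, each line left out, another prior count and another length. The fits were also run on simulated counts with the same spread per gene in every group, so the wider spread of the EV lines of mouse 2 was not covered. Named were all family genes, up to 4 called genes of each ERK list with the largest change, genes needed to describe a list without calls, and for each family gene the 3 most alike. Dusp6 and Nf1, and the genes named for the EV lines or the block alone, were chosen after their values were seen. Etv5 and Il7r, called but not among the 4 largest changes of their lists, were named outside that rule. So were the B lineage markers Vpreb1, Igll1, Rag1 and Blnk. The family and the lists were chosen with earlier results of these data known. Plots were drawn with matplotlib 3.10.9.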

Additional observations from a re-analysis of the deposited data

Results flagged for a closer look

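The change with BCR-ABL1 differed between the mice for 2 genes of the family by a test of the difference itself. For Spred1 it was -7.95 on the log2 scale, mouse 2 minus mouse 1 (edgeR interaction, FDR = 1.26e-06), and for Spry1 it was -2.91 (edgeR interaction, FDR = 0.00149). Both were low in the EV lines of mouse 1, 3 of 3, and 16.9% of all tested genes had a called interaction.

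Single lines stood far from the others of their condition in 2 of the 12 sets of 6 lines examined. Spry4 was at 5.61 CPM in EV 2C, with a gap to the next line of 0.785 of the whole range. Spred2 was at 8.42 CPM in BCR-ABL1 2A, with a gap of 0.679 of the range. These ratios were taken on CPM, and each set pools the lines of both mice. On log2 CPM, Spry4 stood at 2.50 in EV 2C, at 0.59 in the next EV line and at -1.42 in the lowest. Chance marks about 1 in 20 sets only where all 6 lines come from a single normal distribution, which was not shown here.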

How the results depend on the processing

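Over the 12 lines, 0 family genes were called higher and 0 lower by edgeR glmTreat under DESeq2's size factors, both other filters, the likelihood ratio fit, DESeq2, the test against no change, either replicate block and with any line left out. In the lines of mouse 1 alone, 2 were higher, with 2512 genes higher and 1877 lower in all and 20 ERK list genes higher. In mouse 2 alone 408 genes were lower. The test against no change called 3389 genes higher and 3897 lower, and 25 and 13 of the ERK lists. The replicate block by mouse put the log2 fold change of Spred1 at 4.58 and that of Spry1 at 1.62, and no family call changed. The line number as replicate block gave 4.77 and 1.75 and 923 genes higher and 765 lower. Beyond the mouse such lines share a letter, and the labels do not say whether a letter stands for the same experiment. Leaving out each line gave 807 to 1353 genes higher and 802 to 1434 lower, 12 to 17 ERK list genes higher and 5 to 6 lower, 2 to 3 family genes with a called interaction, 2 to 4 differing between mice in EV lines and 0 to 2 in BCR-ABL1 lines. The highest values were those without EV 2C, shared with EV 2B for the interaction and with other lines for ERK list genes lower. For the interaction and the differences between mice, the shares of all genes with a line left out are not given here. With no gene filter, 1 gene, Spry4, differed between mice in BCR-ABL1 lines, and in EV lines Spry4 was called (0.88, FDR = 0.0284) and Spry2 was not (0.52, FDR = 0.0575).

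Reversed signs came from values near 0 or from Spry4. In mouse 1 alone Spry2 was 0.10 and Spred3 -0.15, and Spred2 ranged from -0.02, without EV 2C, to 0.15 with a line left out. The Spry4 interaction went from 0.08 to -0.11 without EV 1A, -0.40 without EV 2A, -0.39 without EV 2B and -0.02 without BCR-ABL1 1A, 1B or 2C, and to 2.37 without EV 2C. The Spred2 interaction lay between -0.07 and 0.30, with -0.05 without EV 1B, -0.07 without EV 2C or BCR-ABL1 2B and -0.00 without BCR-ABL1 2C. The EV difference of Spry4 between mice lay between -1.39, without EV 2C, and 1.38, and the BCR-ABL1 difference of Spred2 between -0.25 and 0.13, the latter without BCR-ABL1 2A. The cause was not tested. Of the other values, 414 of single genes and 168 of counts and family totals kept their side. Spry4 and Spred3, with 11 to 311 and 38 to 84 counts per line, were the least precise.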
